A study of Homo sapiens with 7 samples.

Results

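The zinc finger genes of human chromosome 19 were taken as the protein-coding genes of that chromosome whose symbol begins with ZNF in the GENCODE release 44 annotation lifted to GRCh37 (hg19). The rule found 249 genes among 1480 protein-coding genes of the chromosome and 20162 in the genome, and 3 of the 249 are readthrough genes that join a member with a neighbour. The other 1231 protein-coding genes of chromosome 19 served as the comparison, together with the 267 ZNF genes of other chromosomes. The label was checked against the coding sequences. Of the 245 members whose canonical reading frame was intact on GRCh37, 243 encode at least 1 C2H2 zinc finger, with a median of 12 fingers (interquartile range 9 to 15), whereas 3.52% of 1193 other genes of the chromosome do.

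ChIP-seq, in which chromatin fragments are pulled down with an antibody and sequenced, was carried out in Kasumi-1, an established myeloblast cell line from peripheral blood that carries the t(8;21) translocation. Antibodies were directed against AML1 (Runx1, a hematopoietic transcription factor), AML1-ETO (the fusion protein of the translocation), N-CoR (a co-repressor that works with histone deacetylases), p300 (a histone acetyltransferase and co-activator) and H3K4me3 (a histone mark of active promoters). Every list comes from the same cell line with no treatment named, so there are no conditions to compare, and values from 1 line cannot speak for other t(8;21) cells. The authors pooled 2 replicates per antibody into a single list of peak positions, so no spread between replicates is available, no test between groups of genes was made, and the exact Clopper-Pearson 95% intervals below cover counting error over genes or summits only. Each deposited interval is 100 bp wide and centred on a summit, without a height, score or read count. The depth is therefore unknown from the lists, and a gene without a summit is one where no peak passed the authors' threshold.

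Chromosome 19 holds 592 of 11692 AML1 summits, 913 of 18087 AML1-ETO summits, 523 of 10004 N-CoR summits, 923 of 11020 p300 summits and 1452 of 19632 H3K4me3 summits. A hit at a promoter is a summit within 1 kb of the start of the canonical transcript, and a hit in the gene body is a summit anywhere from 5 kb before to 5 kb after the gene. As a check of the cell type, 6 of 10 myeloid marker genes had H3K4me3 at the promoter, against 0 of 8 markers of T cells, B cells, liver and nerve cells. The share over all protein-coding genes was 58.8%, so the myeloid count alone does not identify the cell type. The myeloid genes without it were MPO, PRTN3, KIT and LYZ, and the promoters of MPO and KIT held AML1, AML1-ETO and p300 summits.

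Most zinc finger genes of this chromosome arose by tandem duplication and stand in long arrays of relatives. Many encode a KRAB domain beside the C2H2 fingers. The KRAB domain recruits TRIM28 (KAP1), which brings in the H3K9 methyltransferase SETDB1 and HP1 proteins, and many of these factors silence retrotransposons. The zinc finger genes themselves carry H3K9me3 over their last exons in many cell types.

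The sequences under the AML1-ETO summits are shown first, because they carry the core motif of the runt domain at some members and not at others. The windows come from GRCh37 and are printed on the forward strand, 5′ to 3′, and capitals mark TGTGGT or its reverse complement ACCACA. Windows at the promoters of ZNF554 (chr19:2819680-2819779, 136 bp upstream of the start), ZNF787 (chr19:56632782-56632881, 168 bp upstream) and ZNF671 (chr19:58239014-58239113, 72 bp upstream) hold the motif. So does the window over the start of ZNF561, of which 30 bases are printed (chr19:9731826-9731855). The last pair of lines shows promoters with summits of all 4 proteins whose windows lack the motif, a second summit in an intron of ZNF787 (chr19:56632004-56632103) and the summit of ZNF584 (chr19:58919748-58919847).
ZNF554: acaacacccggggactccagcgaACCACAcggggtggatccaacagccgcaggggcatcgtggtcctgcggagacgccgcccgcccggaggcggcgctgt
ZNF787: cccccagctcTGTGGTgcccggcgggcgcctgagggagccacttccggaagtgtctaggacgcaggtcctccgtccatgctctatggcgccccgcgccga
ZNF671: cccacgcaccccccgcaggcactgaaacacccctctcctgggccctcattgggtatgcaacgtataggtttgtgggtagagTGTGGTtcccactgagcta
ZNF561: ggtggaactcACCACAgcctgggcagactc
ZNF787 intron: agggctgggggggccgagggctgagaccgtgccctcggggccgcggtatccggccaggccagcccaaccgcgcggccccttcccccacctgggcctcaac
ZNF584: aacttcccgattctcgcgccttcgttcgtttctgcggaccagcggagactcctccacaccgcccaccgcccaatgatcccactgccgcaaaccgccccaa

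The zinc finger promoters of chromosome 19 carried H3K4me3 in a larger share than the other promoters of the chromosome, with intervals that stood apart, whereas the intervals overlapped for each of the 4 proteins. H3K4me3 was found at 184 of the 249 promoters (73.9%, interval 68.0 to 79.2%), against 55.8% of other genes (53.0 to 58.6%). p300 was found at 102 (41.0%, 34.8 to 47.4%), against 38.5% (35.8 to 41.3%). AML1 was found at 39 (15.7%, 11.4 to 20.8%), against 17.1% (15.1 to 19.4%). The intervals for p300 and AML1 overlapped widely, so no difference can be read from them. AML1-ETO was found at 30 promoters (12%, 8.28 to 16.8%), against 17.5% (15.4 to 19.7%), and N-CoR at 14 (5.62%, 3.11 to 9.25%), against 10.4% (8.75 to 12.2%). For AML1-ETO and N-CoR the shares were lower in the members, but their intervals reached into those of the other genes.

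The promoters of ZNF genes of other chromosomes held AML1-ETO in 27% (21.7 to 32.7%) and N-CoR in 16.1% (11.9 to 21.1%), both with intervals above those of the chromosome 19 members. Their share with H3K4me3 was 80.9% (75.7 to 85.4%), which overlaps that of the chromosome 19 members.

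**Figure D1:**
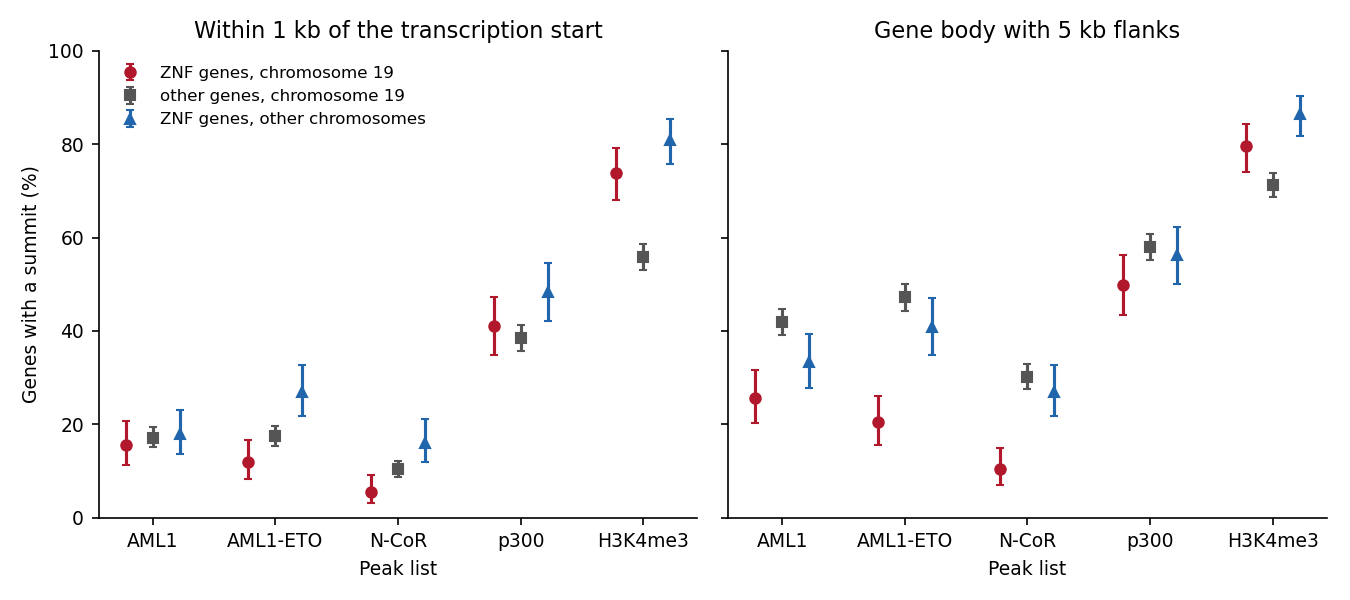
Share of genes (%) with a summit of each list within 1 kb of the transcription start (left) and in the gene body with 5 kb flanks (right), for the 249 ZNF genes of chromosome 19, the 1231 other genes of the chromosome and the 267 ZNF genes elsewhere. Points are shares and bars exact 95% intervals over genes. In the right panel the chromosome 19 ZNF genes lie below both other groups for AML1-ETO (20.5%) and N-CoR (10.4%).

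Over the whole gene with its flanks the differences were wider. AML1-ETO summits were found in 51 members (20.5%, 15.6 to 26.0%), against 47.2% of other genes (44.4 to 50.0%) and 40.8% of ZNF genes elsewhere. N-CoR was found in 26 members (10.4%, 6.94 to 14.9%), against 30.2% and 27%. AML1 was found in 64 (25.7%, 20.4 to 31.6%), against 41.9% and 33.3%. For these proteins the zinc finger genes lay below the other genes of the chromosome with intervals that did not meet. Among genes with at least 80% unique sequence, a class added after seeing the data and described below, the AML1 shares were 35.9% of 103 members and 42.4% of 594 other genes. p300 was found in 124 members (49.8%, 43.4 to 56.2%), against 58.0% of other genes, with intervals that met, and H3K4me3 in 198 (79.5%, 74.0 to 84.4%), against 71.3%. With summits at promoters left out the order for H3K4me3 turned, to 8.43% of members against 25.8% of other genes, and the shares of the proteins fell as well, to 7.23% against 31.4% (AML1-ETO), 6.02% against 23.1% (AML1), 4.42% against 20.1% (N-CoR) and 5.22% against 23.9% (p300). Without the flanks they were 12% against 29.3% (AML1-ETO), 10.0% against 21.7% (AML1), 5.22% against 17.9% (N-CoR) and 30.5% against 36.6% (p300). A single member held at most 2 AML1-ETO summits, which 7 members did, whereas another gene of the chromosome held 12 and 126 of the 1231 held 3 or more.

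The zinc finger genes were not shorter than their comparison. Their median length was 25932 bp, against 13781 bp for other genes of chromosome 19. In other genes the share with an AML1-ETO summit rose with length, from 36.9% under 10 kb to 65.3% at 40 kb and over. Among members it was 36.0% under 10 kb (9 of 25), 21.7% from 10 to 20 kb (15 of 69), 16.7% from 20 to 40 kb (17 of 102) and 18.9% at 40 kb and over (10 of 53, 9.44 to 32.0%). For AML1-ETO the shortest members were thus close to other genes of their length, and the longer ones fell below. For the other proteins the order turned under 10 kb, with intervals that overlapped. There N-CoR was found in 40% of members (21.1 to 61.3%) and 22.02% of other genes (18.3 to 26.2%). AML1 was found in 60% (38.7 to 78.9%) and 35.3% (30.8 to 39.9%), and p300 in 72% (50.6 to 87.9%) and 48.8% (44.03 to 53.5%). N-CoR was found in 5.66% of members of 40 kb and over (3 of 53, 1.18 to 15.7%), against 42.3% of other genes. Of the 25 members under 10 kb, 16 lie in the last array of the chromosome, described below.

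**Figure D2:**
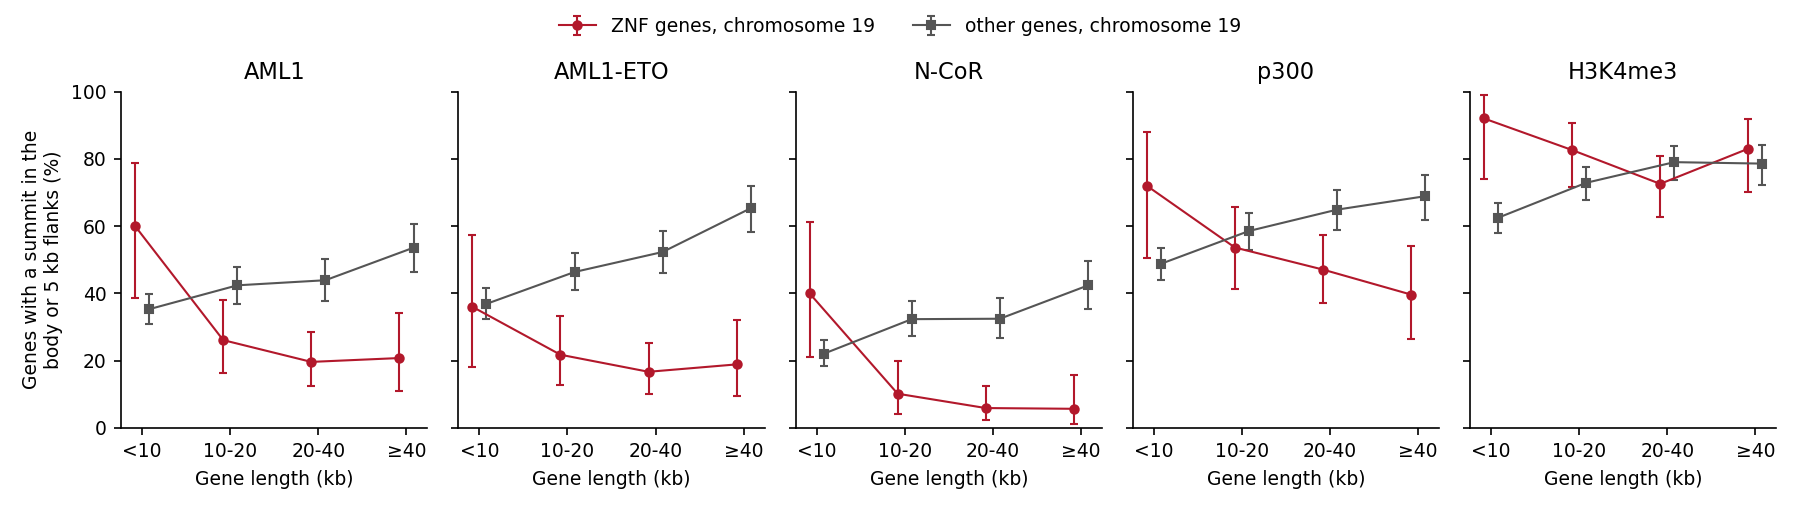
Share of genes (%) with a summit in the gene body or its 5 kb flanks, by gene length in kb, for ZNF genes of chromosome 19 and other genes of the chromosome, with exact 95% intervals. At 40 kb and over AML1-ETO was found in 18.9% of ZNF genes and 65.3% of other genes, while H3K4me3 was found in 83.0% and 78.6%.

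The summits in zinc finger genes stood mostly at promoters. The bodies and flanks of the 249 members cover 9.42 Mb once merged and hold 49 different AML1-ETO summits. Of these, 33 lie within 1 kb of the canonical start of some protein-coding gene. The remaining 16 give 1.70 summits per Mb (exact Poisson interval 0.971 to 2.76), against 17.2 per Mb (15.8 to 18.7) in the 32.4 Mb of other genes of the chromosome and 4.82 (3.81 to 6.01) at ZNF genes elsewhere. AML1 gave 1.38 per Mb against 9.28, N-CoR 0.956 against 9.83, and p300 1.17 against 9.68. H3K4me3 gave 3.29 per Mb against 11.2. Away from promoters all 5 lists were therefore sparser over the zinc finger genes of this chromosome than over its other genes. The ZNF genes elsewhere lay between them, with 3.77 per Mb (AML1), 3.03 (N-CoR) and 2.90 (p300), and H3K4me3 at 4.45 (3.48 to 5.60) with an interval that overlapped that of the members (2.24 to 4.67). The territories of neighbouring genes can overlap, so a summit may count in both.

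**Figure D3:**
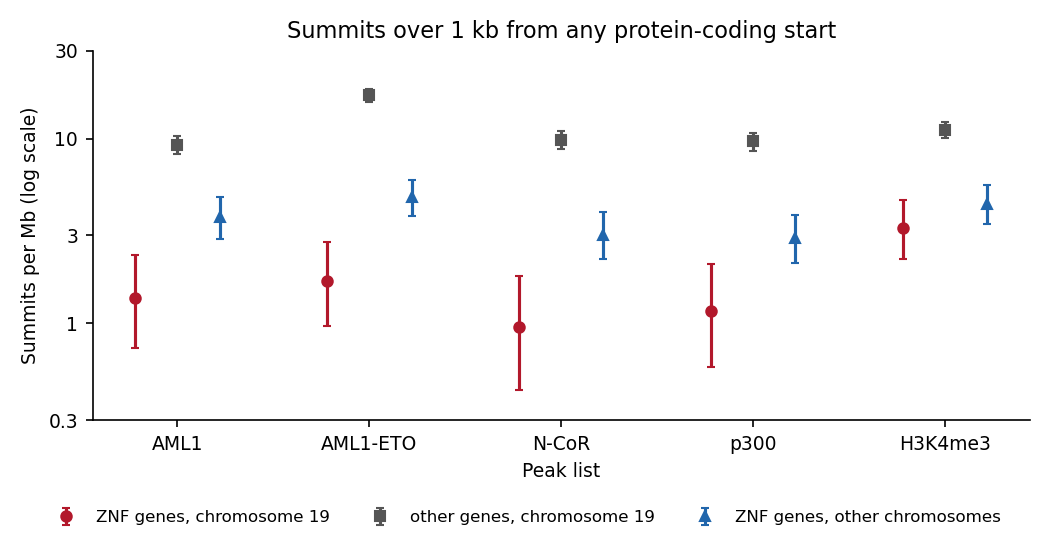
Summits per Mb of merged gene territory (log scale) that lie over 1 kb from the canonical start of any protein-coding gene, with exact Poisson 95% intervals, for each list and group of genes. The ZNF genes of chromosome 19 lie lowest in each list, with 1.70 AML1-ETO summits per Mb against 17.2 in other genes, but for H3K4me3 their interval overlaps that of ZNF genes elsewhere.

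The 16 AML1-ETO sites away from promoters were examined one by one. Away means over 1 kb from every canonical start, so other annotated starts were not excluded. The sites of ZNF575 (chr19:44029684-44029783, in an exon) and ZNF490 (chr19:12751035-12751134) lie beside the annotated 5′ end of their gene. An AML1 summit lay within 99 bp of 11 of the 16 sites, N-CoR within 99 bp of 6 and p300 within 99 bp of 4. H3K4me3 lay within 1 kb of 2. The Runx motif TGTGGT, on either strand, was present in 8 of the 16 windows (50.0%, 24.7 to 75.3%), against 27.9% (24.2 to 31.8%) of the 559 such windows in other genes. The interval for 16 windows reaches down to that of the other genes. Windows are printed for a site 1593 bp upstream of ZNF497 that also lies in the flank of ZNF837 (chr19:58875660-58875759), where AML1 and N-CoR have summits too, and for intronic sites of ZNF507 (chr19:32843028-32843127) and ZNF543 (chr19:57833298-57833397), where AML1 has a summit, and of ZNF230 (chr19:44510286-44510385), where AML1-ETO stands without any other list. The first and the ZNF507 window each hold the motif on both strands.
ZNF497 and ZNF837: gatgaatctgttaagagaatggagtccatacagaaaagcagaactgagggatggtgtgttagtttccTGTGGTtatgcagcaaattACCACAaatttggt
ZNF507: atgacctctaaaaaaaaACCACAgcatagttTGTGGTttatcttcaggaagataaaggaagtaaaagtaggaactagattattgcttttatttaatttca
ZNF543: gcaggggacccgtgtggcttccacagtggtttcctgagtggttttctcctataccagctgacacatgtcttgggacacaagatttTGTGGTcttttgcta
ZNF230: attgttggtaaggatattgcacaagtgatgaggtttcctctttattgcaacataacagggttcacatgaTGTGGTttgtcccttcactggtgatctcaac

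ZNF536, the longest member at 488696 bp, held an AML1-ETO summit deep in an intron (chr19:31046011-31046110) with an N-CoR summit beside it and no AML1, p300 or H3K4me3 summit at that site. ZNF486 had a site in its upstream flank (chr19:20273747-20273846) where AML1, N-CoR and p300 all had summits within 99 bp, although its promoter held none of the 5 lists.

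Because the groups differ in how often H3K4me3 is present, the proteins were also counted among promoters with that mark. Of the 184 zinc finger promoters with H3K4me3, 30 held AML1-ETO (16.3%, 11.3 to 22.5%), against 27.5% of 687 other promoters with the mark (24.2 to 31%). N-CoR was found at 7.61% (4.22 to 12.4%) against 16.3% (13.6 to 19.3%). AML1 was found at 21.2% (15.5 to 27.8%) against 28.5%, and p300 at 55.4% (47.9 to 62.7%) against 66.7% (63.0 to 70.2%). Once the mark was required, the shares of all 4 proteins were lower at zinc finger promoters than at other promoters of this chromosome, with AML1 intervals that overlapped and p300 intervals that nearly met. With shared promoters left out, p300 was found at 55.6% of 151 marked members and 63.6% of 508 other marked promoters, and with at least 80% unique sequence at 56.4% of 149 and 66.9% of 632. Off chromosome 19, the 10776 other promoters with the mark held p300 in 56.2% and AML1 in 23.5%, close to the members, and AML1-ETO in 29% and N-CoR in 16.1%. ZNF promoters elsewhere with the mark held p300 in 59.3%, AML1 in 21.3%, AML1-ETO in 31.9% and N-CoR in 19.4%. For p300 and AML1 the members were thus near the share off the chromosome, and the other genes of chromosome 19 were above it. Every protein summit at a zinc finger promoter came with H3K4me3. The mark was also found at 87.5 to 96.6% of the other promoters of the chromosome that held a given protein. At ZNF promoters elsewhere it was found at 95.8 to 99.2%. Of the 65 members without the mark, 0 held any of the 4 proteins (upper bound 5.52% for each). Among the 544 other promoters without it, 2.76 to 4.78% held a given protein, and the bound covers these shares.

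The median positions of the summits differed between lists. The H3K4me3 summit nearest the start of a zinc finger gene lay at a median of 252.5 bp downstream, with 166 of 184 (90.2%) on the downstream side. p300 lay at a median of -1 bp, AML1-ETO at -28 bp, N-CoR at -52.5 bp and AML1 at -81 bp, where negative values are upstream. AML1 was upstream in most members, with 7 of 39 downstream. In other genes of the chromosome the medians were 224 bp for H3K4me3, -30.5 bp for p300, -58 bp for AML1-ETO, -93.5 bp for N-CoR and -135 bp for AML1, which is the same order, with each median of the members further downstream.

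**Figure D4:**
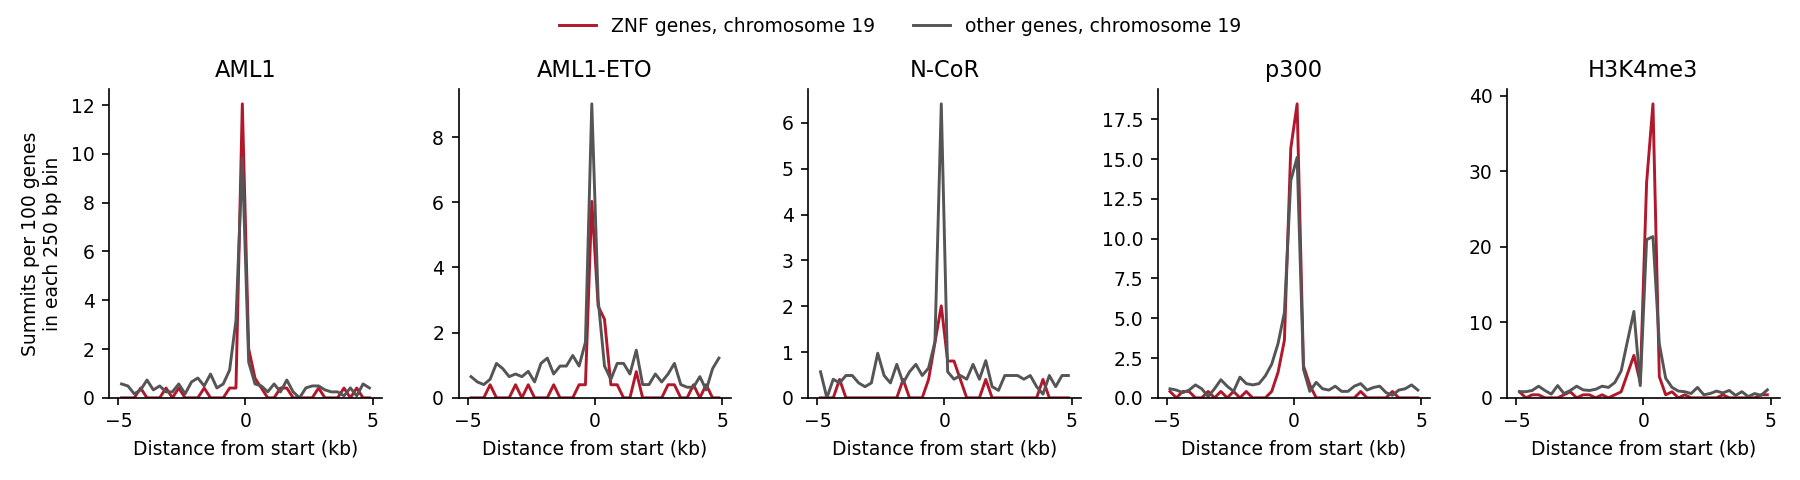
Summits per 100 genes in bins of 250 bp, by distance from the transcription start in kb (negative is upstream), for ZNF genes and other genes of chromosome 19, with a separate vertical scale for each list. H3K4me3 at ZNF genes peaks downstream of the start, in the bin from 250 to 500 bp (39.0 summits per 100 genes), and AML1-ETO just upstream (6.02 per 100 genes).

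Among the 249 promoters, 140 held none of the 4 proteins, 63 held 1, 22 held 2, 18 held 3 and 6 held all 4. p300 alone was the most frequent pattern, at 57 members (22.9%, against 17.7% of other genes), all of them with H3K4me3. AML1, AML1-ETO and p300 without N-CoR followed with 14 members (5.62% against 3.25%). Of the 30 AML1-ETO promoters, 27 also held p300 (90%, 73.5 to 97.9%) and 21 AML1 (70%, 50.6 to 85.3%), against 68.4% and 47.9% of AML1-ETO promoters of other genes. N-CoR was present at 7 of the 30 (23.3%, 9.93 to 42.3%) against 38.1%. AML1-ETO at zinc finger promoters was thus mostly found with p300 and AML1, although the intervals of members and other genes overlapped for all 3 partners. AML1-ETO stood alone at 2 members (0.803%), against 48 other genes (3.90%).

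The 6 promoters with all 4 proteins were those of ZNF837, ZNF787, ZNF584, ZNF627, ZNF446 and ZNF561, and each also held H3K4me3. At ZNF584 (chr19:58912871-58943103), which encodes 8 fingers, the AML1, AML1-ETO and p300 summits lay 221, 218 and 214 bp upstream of the start and N-CoR 310 bp upstream. At ZNF561 (chr19:9715356-9731912) the AML1, AML1-ETO and N-CoR summits lay 39, 32 and 21 bp downstream of the start, in an exon, with p300 365 bp upstream of the start. The windows of all 4 proteins overlap at ZNF584, and those of AML1, AML1-ETO and N-CoR overlap at ZNF561. At ZNF787 (chr19:56598732-56632664) there were a pair of sites, 1 upstream with AML1, AML1-ETO and p300 and 1 in an intron, 610 bp downstream for AML1-ETO, where N-CoR joined them. At ZNF837 (chr19:58878985-58892397) AML1-ETO, N-CoR and p300 lay 290, 284 and 287 bp downstream in an intron, apart from AML1 at 245 bp upstream. ZNF837, ZNF584 and ZNF446 lie near each other at the end of the chromosome, together with ZNF497, whose promoter held AML1, N-CoR and p300 without AML1-ETO.

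ZNF544 and ZNF443 differed from these in the factor that was missing. ZNF544 (chr19:58739960-58788861) had AML1, AML1-ETO and p300 within 134 to 158 bp upstream of its start and no N-CoR. ZNF443 (chr19:12540520-12551835) had 2 AML1-ETO summits, 40 bp upstream and 449 bp downstream, with p300 and N-CoR but no AML1 summit. Its gene body had the lowest share of unique sequence among the genes named here, 50.5% of sampled 31-base words found once in GRCh37. ZNF490 (chr19:12686914-12750912), on the reverse strand, held AML1-ETO at 2 places away from its canonical start, both with AML1. N-CoR and p300 lay at the canonical start itself. The AML1-ETO window at chr19:12751035-12751134 lies just upstream of the gene's annotated 5′ end.

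Of members with known roles, ZNF91, which silences SVA elements, held p300 and H3K4me3 at its promoter, and ZNF93, which silences LINE-1 elements, held H3K4me3 alone. ZNF274, which recruits SETDB1 to the last exons of zinc finger genes, held p300 and H3K4me3. ZNF331, an imprinted gene, held H3K4me3 alone. None of these 4 had an AML1, AML1-ETO or N-CoR summit in its body or flanks. ZNF160 held AML1, AML1-ETO and p300 with H3K4me3, and ZNF264 held AML1-ETO with H3K4me3 only.

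The members fall into 16 blocks when a new block begins wherever neighbouring members lie more than 1 Mb apart, and 7 blocks with at least 10 members hold 228 of the 249 genes. Block 5 (chr19:19779605-24312770, 37 members) had 0 promoters with AML1, AML1-ETO or N-CoR, 12 with p300 and 22 with H3K4me3. Block 15 (chr19:52074536-54083523, 40 members) had 2 with AML1, 1 with AML1-ETO, 0 with N-CoR, 6 with p300 and 20 with H3K4me3. Among the 7 blocks these had the lowest shares of promoters with AML1 and with AML1-ETO. Block 9 (26 members) likewise had 0 promoters with N-CoR. The members of block 5 had a median CpG ratio, explained below, of 0.538, against 0.708 for all members, and its part in the count was not tested. Block 3 (chr19:11594242-12750912, 26 members) had 9 promoters with AML1-ETO (34.6%), 4 with N-CoR and 24 with H3K4me3. Block 16 (chr19:55987984-58992597, 59 members) had 16 with AML1, 10 with AML1-ETO, 7 with N-CoR, 27 with p300 and 50 with H3K4me3. Blocks 3 and 16, picked after their values were seen, hold 26 and 59 of the 249 members. Together they held 19 of the 30 AML1-ETO promoters and 11 of the 14 N-CoR promoters. The 14 N-CoR promoters rest on 13 summits, since ZNF490 and ZNF791 of block 3 share a summit.

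**Figure D5:**
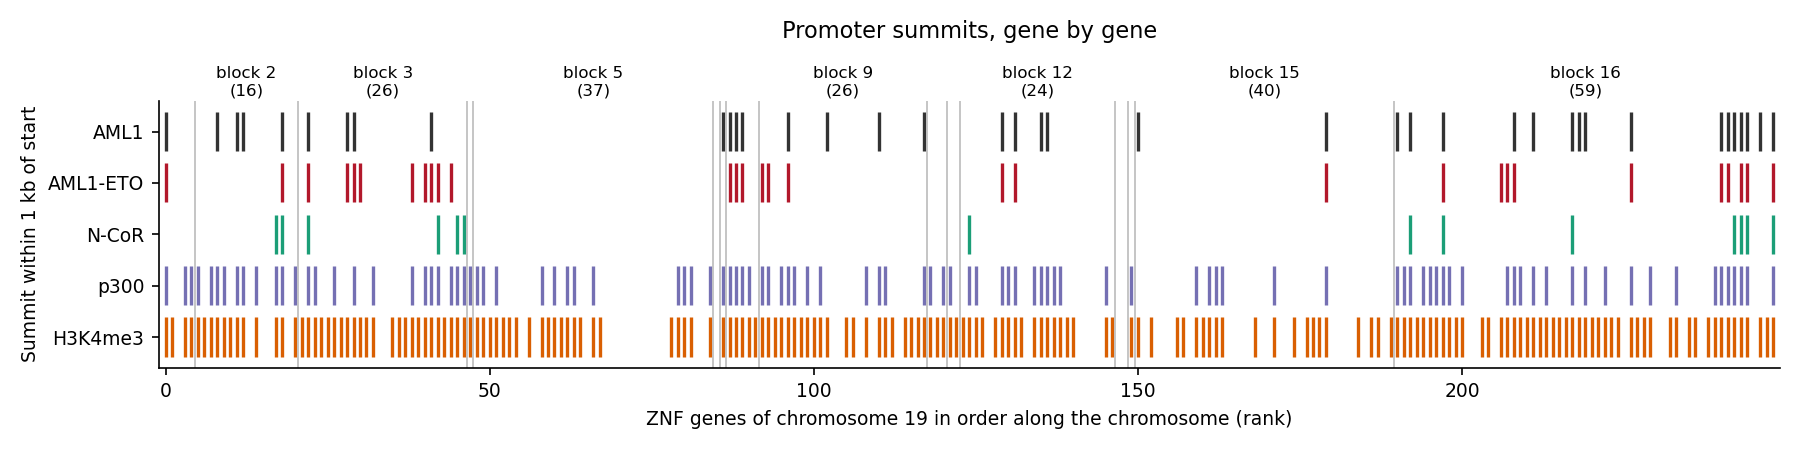
Promoter summits of each list, gene by gene, for the 249 ZNF genes in order along chromosome 19. A vertical mark is a gene with a summit within 1 kb of its start, grey lines separate blocks, and blocks of 10 or more genes are named with their number of members. Block 5 shows no AML1, AML1-ETO or N-CoR mark among its 37 members.

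Within block 5, 10 neighbouring members from ZNF43 to ZNF728 had no H3K4me3 at the promoter, the longest such run among the members. This run, picked after its values were seen, spans 1.20 Mb (chr19:21987752-23185978), includes ZNF208, ZNF98 and ZNF99, and holds 0 summits of any of the 5 lists, flanks included. No other protein-coding gene lies in it. The gene bodies of the run had between 50.7 and 79.8% unique 31-base words (median 66.4%), against a median of 78.0% for all members, and the part of repeated sequence in this result was not tested. Runs without H3K4me3 were not confined to zinc finger genes, since 19 neighbouring other genes from GPR32 to KLK14, with the kallikrein genes among them, formed a longer one by count.

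In all, 49 members (19.7%) had no summit of any list in the body or flanks, close to the 21.0% of other genes, and 113 (45.4%) had no summit of the 4 proteins, against 28.3%. The 5 longest without any summit were ZNF98 (141467 bp), ZNF568 (88722 bp), ZNF208 (77992 bp), ZNF578 (63330 bp) and ZNF43 (47176 bp). ZNF208, with 36 fingers, and ZNF98 stand in the run described above. Over all members, finger number varied little with the mark, with a median of 12 fingers among promoters with H3K4me3, 13 without it and 11 among those with AML1-ETO.

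Blocks here are the 7 with at least 10 members, and other genes inside the smaller blocks count as outside. The other protein-coding genes that lie inside these 7 blocks were set beside the members, since they share the location. Of these 179 neighbours 12.8% held AML1-ETO at the promoter (8.32 to 18.7%), against 11.4% of members in blocks, and 46.4% held H3K4me3 (38.9 to 54.0%), against 73.2% of members in blocks (67.0 to 78.9%). These AML1-ETO shares pool blocks with opposite orders. In block 16 it was found at 10 of 59 members and 1 of 52 neighbours, and in block 2 at 1 of 16 members and 15 of 59 neighbours. In the body with flanks 32.4% of the neighbours held AML1-ETO (25.6 to 39.8%), between the 18.9% of members in blocks (14.0 to 24.6%) and the 49.7% of other genes outside blocks (46.7 to 52.8%). AML1 in the body with flanks was found in 29.6% of neighbours (23 to 36.9%) and 25.4% of members in blocks (19.9 to 31.6%), against 44% outside blocks (41.0 to 47.1%). p300 in the body was found in 49.2% of neighbours and 48.2% of members in blocks, and N-CoR at the promoter in 5.03% and 6.14%. In these measures the intervals of neighbours and members overlapped. N-CoR in the body was found in 20.1% of neighbours (14.5 to 26.7%) and 10.5% of members in blocks (6.86 to 15.3%), against 31.9% outside blocks (29.1 to 34.9%). Here too the intervals of neighbours and members overlapped, though narrowly. At promoters the AML1-ETO intervals of members and neighbours also overlapped, whereas those of H3K4me3 stood apart. For H3K4me3 the members exceeded both the neighbours and the 57.4% of genes outside blocks.

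The promoters of the members had features that the choice by symbol did not use. Within 500 bp of the start, the observed over expected CpG ratio had a median of 0.708 (interquartile range 0.613 to 0.764), against 0.654 (0.341 to 0.793) in other genes of the chromosome. Among promoters with a ratio from 0.6 to 0.8, H3K4me3 was found at 76.8% of members (119 of 155, 69.3 to 83.2%) and 81.0% of other genes (76.8 to 84.7%), so that the excess over other genes was not seen in this class, which holds most members. AML1-ETO in the same class was found at 9.68% of members (5.52 to 15.5%) and 21.0% of other genes (17.1 to 25.3%), but its intervals overlapped from 0.4 to 0.6 (6.67% of members against 10.8%) and its order turned at 0.8 and over (28.6%, 15.7 to 44.6%, against 25.6%, 20.7 to 30.9%). In the class from 0.4 to 0.6, H3K4me3 was found at 64.4% of members (48.8 to 78.1%) and 34.1% of other genes (27 to 41.9%), and at 0.8 and over at 83.3% (68.6 to 93.0%) and 92.6% (89.0 to 95.3%).

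Motifs were counted as exact letters on either strand within 500 bp of the start. The ETS sequence CCGGAA was present at 177 of the 249 promoters (71.1%, 65.0 to 76.6%), against 40% of other promoters of the chromosome and 39.6% of all 20162 promoters. The Runx sequence TGTGGT was present at 107 (43.0%, 36.7 to 49.4%), against 34.0% and 32.6%. AGGAAG was present at 67.5% of members and 67.3% of other promoters, and GAGGAA at 57.4% and 60.8%. AGGAAG and GAGGAA can overlap each other, and both share the letters GGAA with CCGGAA. Among promoters with H3K4me3, CCGGAA was present at 71.7% of members (64.6 to 78.1%) and 54.1% of other genes (50.3 to 57.9%), and TGTGGT at 41.8% (34.6 to 49.3%) and 26.3% (23.1 to 29.8%). The intervals of members and other genes stood apart there for both motifs.

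Within the 100 bp windows of the summits at zinc finger promoters, TGTGGT was present in 12 of 39 for AML1 (30.8%, 17.0 to 47.6%), against 13.7% at other promoters (9.04 to 19.5%). For AML1-ETO it was present in 8 of 31 (25.8%, 11.9 to 44.6%), against 11.2% (7.21 to 16.3%). The motif was found in 4 of 103 p300 windows (3.88%) and 0 of 13 N-CoR windows (upper bound 24.7%). It was therefore more frequent under AML1 and AML1-ETO than under p300 at these promoters, and its interval at members overlapped that of other promoters for both. Over all summits of chromosome 19, TGTGGT was present in 29.6% of AML1 windows and 24.8% of AML1-ETO windows, close to the shares at members. Within 500 bp of the start, 20 of the 30 members with AML1-ETO held TGTGGT (66.7%, 47.2 to 82.7%), against 32.6% of other AML1-ETO promoters (26.3 to 39.3%).

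The arrays hold repeated sequence, where short reads may match several places. Sampled 31-base words of the gene body were found once in GRCh37 in a median of 78.0% for members and 79.6% for other genes, and at promoters in 90.1% and 92.6%. In gene bodies with 80 to 90% unique words, AML1-ETO was found in 25% of members (16.4 to 35.4%) and 45.4% of other genes (40.8 to 50.0%). In those with 70 to 80%, it was found in 16.8% (9.94 to 25.9%) and 52.6% (47.9 to 57.2%). The intervals stood apart in these classes. Under 70% unique the shares were 19.6% (9.82 to 33.1%) and 38.3% (31.1 to 45.9%), and at 90% and over 20.0% (3 of 15, 4.33 to 48.1%) and 46.5% (37.7 to 55.5%), with intervals that overlapped. AML1 was found in 17.6% (8.40 to 30.9%) of members and 27.4% (21.0 to 34.7%) of other genes under 70% unique, in 18.9% and 46.8% at 70 to 80%, in 34.1% (24.3 to 45.0%) and 42.6% (38 to 47.2%) at 80 to 90%, and in 46.7% (7 of 15) and 41.9% at 90% and over. The AML1 intervals thus stood apart at 70 to 80% and overlapped in the other classes, and the order of the shares turned in the last. The part of repeated sequence in these shares was not tested.

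The proteins through which KRAB zinc fingers silence chromatin are encoded by genes across the genome, and a list of 22 such genes was examined in the same way. H3K4me3 was found at 21 of their promoters, against 58.8% of all protein-coding genes, p300 at 15 (34.1% of all genes), AML1-ETO at 10 (18.4%), AML1 at 9 (14.8%) and N-CoR at 4 (10.1%). TRIM28, the co-repressor that KRAB domains recruit, lies on chromosome 19 (chr19:59055431-59062089) beyond the last block and held AML1, AML1-ETO, p300 and H3K4me3 at its promoter. The promoter of SETDB1 held AML1, N-CoR and p300, and those of the HP1 genes CBX1, CBX3 and CBX5 all held AML1, AML1-ETO and p300. MORC2, an ATPase of the HUSH pathway, was the gene without an H3K4me3 summit at its promoter. With 22 genes the interval for AML1-ETO ran from 24.4 to 67.8%, and this list is too small for more than a description.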

How the data were processed

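The authors aligned reads to GRCh37 (hg19) with bowtie (0.12.8 in the submitters' processing notes, up to 2 mismatches), pooled the replicates and called peaks with MACS2 (2.0.10.20131216 in the same notes) at p < 1e-20. The control used in peak calling and the treatment of reads with several matches are not given in the sources used here. The deposited lists hold positions only, so no expression or signal was measured. Summits were taken as the start plus 50 bp, and coordinates are counted from 1.

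Genes came from GENCODE release 44 lifted to GRCh37. The start was that of the MANE Select or Ensembl canonical transcript, or the gene end for 9 genes of chromosome 19, 3 of them members. Fingers were counted in translated canonical coding sequences by the spacing of cysteines and histidines. Named genes were the 8 members with most of the 4 proteins at the promoter, the 8 with most AML1-ETO summits, the 5 longest without a summit and 8 picked by name for reported roles. Members and lists were chosen with earlier results of these data known. Counting was tested on simulated data. Uniqueness was sampled every 100 bp in bodies and every 25 bp at promoters. The work used Python 3.11.15, numpy 2.4.6, pandas 2.3.3, SciPy 1.17.1, Biopython 1.88 and matplotlib 3.10.9. Libraries for H3K27me3 and input DNA are not analysed here.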

Additional observations from a re-analysis of the deposited data

How the results depend on the processing

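Of 101 alternative values for 14 shares, 80 stayed within the interval of the reported value. The lists hold no score, so a stricter threshold was tried only as the part of each list up to its midpoint in deposited order, whose meaning is not stated. This left promoter shares, members against other genes, of 61.0 against 43.9% (H3K4me3), 15.3 against 23% (p300), 6.43 against 7.80% (AML1), 4.02 against 7.47% (AML1-ETO) and 0.803 against 3.49% (N-CoR), and body shares of 67.1 against 58.4% (H3K4me3), 21.3 against 36.0% (p300), 12 against 23.2% (AML1), 9.24 against 29.5% (AML1-ETO) and 2.41 against 17.5% (N-CoR). Without flanks the body shares were 10.0 against 21.7% (AML1), 12 against 29.3% (AML1-ETO), 5.22 against 17.9% (N-CoR) and 30.5 against 36.6% (p300). Without summits at promoters they were 8.43 against 25.8% (H3K4me3), 5.22 against 23.9% (p300), 6.02 against 23.1% (AML1), 7.23 against 31.4% (AML1-ETO) and 4.42 against 20.1% (N-CoR). Starts at the gene's 5′ end gave H3K4me3 at 66.7% of member promoters against 52.8%. In bodies with at least 80% unique sequence, an alternative chosen after seeing the data, AML1 was found in 35.9% of 103 members and 42.4% of 594 other genes. The order of members and other genes changed in 4 cases, p300 at promoters with the 5′ end (36.9 against 38.1%) or up to the midpoint (15.3 against 23%), AML1 at promoters within 500 bp (15.3 against 15%), and H3K4me3 in bodies without promoter summits (8.43 against 25.8%). AML1-ETO and N-CoR stayed below other genes under each of these alternatives, but not in every class of genes. AML1-ETO was at 28.6% of member promoters against 25.6% at a CpG ratio of 0.8 and over. N-CoR was at 16% of member promoters against 10.1% among genes under 10 kb. In the bodies with flanks of genes under 10 kb, N-CoR was found in 40% of members against 22.02%. No paired analysis was possible because each antibody has 1 pooled list. The read count behind a single summit is unknown. The paper's supplement does give the reads of each replicate library, which differ between the lists.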
